A study of Rattus norvegicus with 12 samples.

Results

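Arc, Homer1, Plk2, Plk3 and Bdnf are genes known from neurons, where they are switched on by synaptic activity. They are described here in cultured rat pituitary cells that received gonadotropin-releasing hormone (GnRH) or vehicle. All probe sets that the platform annotation assigns to a single gene symbol among these 5 were taken, which gave 10 of the 31042 probe sets that are not controls, for 5 of the 14217 genes named by a single symbol. Homer1 has 5 of them, Bdnf 2, and Arc, Plk2 and Plk3 have 1 each. The genes were chosen on the GnRH against vehicle difference, since Arc had one of the largest rises and Plk2 a fall, together with their known activity-linked role. The GnRH differences of these genes are therefore descriptions, with no test.

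The cells were gonadotrope-enriched cultures from the anterior pituitaries of adult female Sprague-Dawley rats, ovariectomized 2 weeks earlier, with 13 to 15 pituitaries pooled per experiment. Large cells were collected by sedimentation, and according to the labels 40 to 60% of them stained for luteinizing hormone, so each sample is a mixture. All samples were kept in medium with 0.2 nM estradiol and steroid-stripped serum. On culture day 3 they were given either 10 nM GnRH or an equal volume of vehicle medium and were lysed after 40 min. There were 6 vehicle and 6 GnRH samples, 1 array each, from 3 cell preparations called enrichment sets I, II and III. Each set held 2 vehicle samples and 2 GnRH samples, replicates 1 and 2 in set I, 3 and 4 in set II, and 5 and 6 in set III.

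In neurons, calcium entry and kinase signalling reach the nucleus within minutes and induce immediate early genes without new protein synthesis. Most such genes encode transcription factors, whereas these 5 encode effectors that act at the synapse or are secreted. The GnRH receptor of gonadotropes couples to Gq and, like synaptic input, raises calcium and activates protein kinase C and MAP kinases. Arc binds the endocytic machinery and helps remove AMPA-type glutamate receptors from the membrane. Homer1 is a scaffold that links group I metabotropic glutamate receptors to inositol trisphosphate receptors, and a short activity-induced form of it uncouples that link. Plk2 and Plk3 are polo-like kinases. Plk2 is induced by activity in neurons and targets the spine protein SPAR for breakdown. Bdnf encodes a neurotrophin that acts through the receptor TrkB, the product of Ntrk2.

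In the RefSeq gene table of rat assembly GRCr8, Arc lies at chr7:108444959-108448413, Homer1 at chr2:26279012-26388279 and Plk2 at chr2:43702536-43708305. Plk3 lies at chr5:135843725-135848900 and Bdnf at chr3:116619633-116670212. RefSeq promoter windows of that build were matched by symbol for 4 of the 5 genes, Homer1, Plk2, Plk3 and Bdnf, and the 250 bases before each gene or transcript start were searched. The cyclic AMP response element (CRE), bound by CREB, was searched as the full site TGACGTCA and as the half-site TGACG on both strands. The full site holds 2 overlapping half-sites. The windows that hold a half-site are shown because they let both polo-like kinase genes be set side by side, together with the matching Bdnf start. They are printed from 5′ to 3′ with the half-sites in capitals.
Plk2, chr2:43702286-43702535, plus strand: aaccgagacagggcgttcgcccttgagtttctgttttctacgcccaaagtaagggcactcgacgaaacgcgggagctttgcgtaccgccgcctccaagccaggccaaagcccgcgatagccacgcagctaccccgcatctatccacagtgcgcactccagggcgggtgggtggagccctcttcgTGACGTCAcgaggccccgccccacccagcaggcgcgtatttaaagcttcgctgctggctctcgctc
Plk3, chr5:135848901-135849150, minus strand: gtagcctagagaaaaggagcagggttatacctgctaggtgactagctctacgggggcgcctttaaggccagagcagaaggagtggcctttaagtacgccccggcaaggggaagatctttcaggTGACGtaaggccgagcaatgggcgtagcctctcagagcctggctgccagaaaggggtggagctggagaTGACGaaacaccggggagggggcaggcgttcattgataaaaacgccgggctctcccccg
Bdnf, chr3:116637608-116637857, plus strand: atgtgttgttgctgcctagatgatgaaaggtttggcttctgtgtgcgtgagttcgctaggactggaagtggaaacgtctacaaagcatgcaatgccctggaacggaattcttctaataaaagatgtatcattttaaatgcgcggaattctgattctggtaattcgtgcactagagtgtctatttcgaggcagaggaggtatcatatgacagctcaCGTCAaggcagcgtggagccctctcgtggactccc

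The Plk2 window held 1 full CRE, which begins 66 bases before the gene start. The full site occurs in 1.59% of the 33469 rat windows of the same length. Plk3 held 2 separate half-sites and no full site, and 1 of the 6 Bdnf windows held 1 half-site. The Homer1 window held none. A half-site occurs in 18.2% of all windows. No CArG box, the site of serum response factor, and no EGR site, searched as GCGNGGGCG, was found in the windows of these 4 genes. They occur in 1.5% and 4.29% of all windows.

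The signals are microarray intensities that the authors had scaled to a common level on every array. The bacterial hybridisation spike-ins, added at fixed amounts, had a geometric mean of 2264 to 11705 on 5 arrays and of 53482 to 320024 on the other 7. The 5 low arrays were the 4 of set I and vehicle 5. Background was taken from 27 control probe sets for Bacillus subtilis genes, and its geometric mean was 14.8 to 22.4 on the 5 low arrays and 52.8 to 184 on the 7 others. The array of vehicle 3 differed from all others: its median rank correlation (Spearman) with them was 0.376, and that of each other array lay between 0.623 and 0.715. The summed signal of 6 gonadotrope markers was 32142 to 473414 (median 171743) in vehicle and 71098 to 494334 (median 400729) in GnRH samples. Of these markers, Lhb, Cga, Fshb and Foxl2 exceeded the background mean on 12 of 12 arrays, Nr5a1 on 11 and Gnrhr on 7. Of 8 neuron markers, Slc17a7, Slc17a6 and Map2 exceeded it on 12 arrays, Nefl and Nefm on 11, Rbfox3 on 9 and Gad1 and Gad2 on 6 each, and the summed signal of the 8 was 2661 to 4003 in vehicle and 2749 to 4811 in GnRH samples, so both sums overlapped between groups. The gonadotrope markers differed by 0.74 (Lhb), 0.90 (Cga), 0.13 (Fshb), 0.18 (Gnrhr), -1.15 (Nr5a1) and -0.67 (Foxl2) on the log2 scale, and 0 of the 6 passed limma's test at an adjusted p under 0.05. In sets I, II and III Lhb differed by 0.13, 0.46 and 1.63 and Cga by 0.13, 0.15 and 2.40. The part of gonadotrope content in the differences below was not tested.

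Arc was brighter in every GnRH sample than in every vehicle sample. The vehicle signals were 28.1 and 47.4 in set I, 116 and 94.8 in set II and 106 and 65.6 in set III. The GnRH signals were 266 and 214, then 466 and 826, then 1242 and 537. The lowest GnRH value, in GnRH 2, was thus above the highest vehicle value, in vehicle 3. No overlap in this direction was found in 0.0537% of the 18625 probe sets tested, 10 in number. On the log2 scale of signal plus 16 the difference was 2.58 ± 0.45 (SE, n = 6 per group), or 5.97-fold in geometric mean, with a 95% interval from 3.08 to 11.6. By set it was 2.27, 2.40 and 3.07, or 4.82-fold, 5.28-fold and 8.38-fold.

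**Figure D1:**
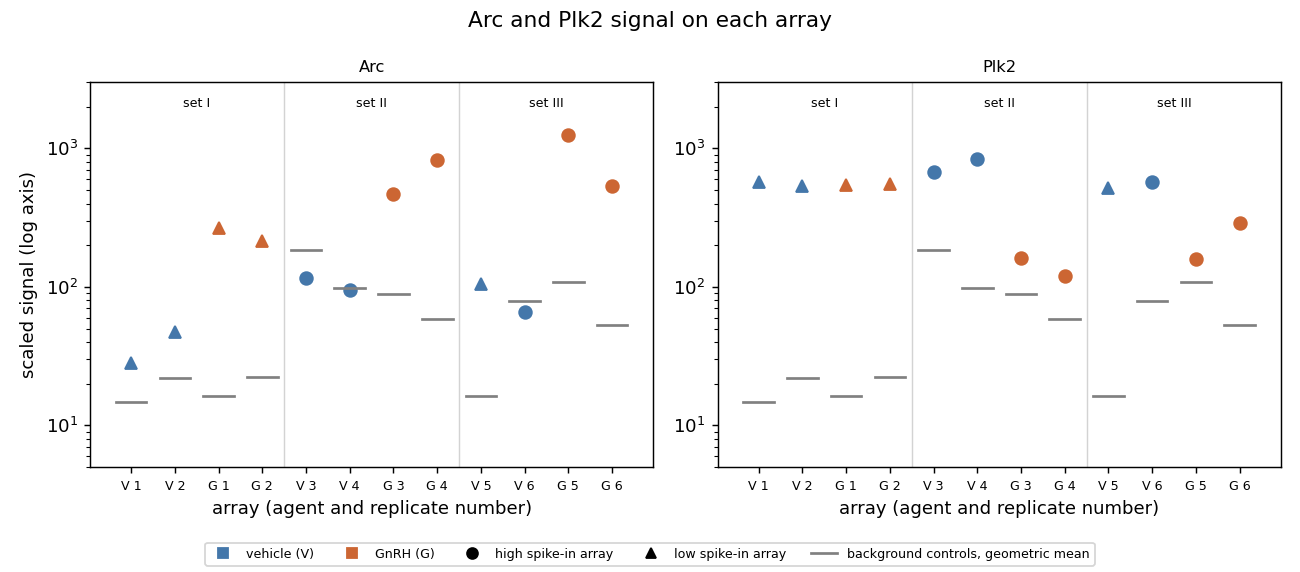
Scaled signal (log axis) of Arc, left, and Plk2, right, on each of the 12 arrays by enrichment set, with vehicle (V) in blue, GnRH (G) in orange, triangles for the 5 arrays with low spike-in signal, circles for the 7 others and a grey bar for the background control mean of that array. Arc lies at 214 to 1242 in GnRH against 28.1 to 116 in vehicle samples, and Plk2 is lower in GnRH samples 3 to 6 but not in 1 and 2.

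Arc was dim in vehicle samples, which makes the size of its difference less certain. In vehicle 3, 4 and 6 the signal was 0.63, 0.972 and 0.822 times the background mean of the same array, so Arc was not above background there. In vehicle 1, 2 and 5 it was 1.90, 2.15 and 6.47 times that mean. All 6 GnRH samples exceeded it, by 5.22 to 16.2 times, and in 5 of them Arc was brighter than each of the 27 controls (25 of 27 in GnRH 3). With each signal raised to at least the background of its array the difference was 2.43, or 5.40-fold. It was 2.78 on the 7 arrays of high spike-in level and 1.87 on the 5 of low level, both selections added after the data were seen. Within an array, Arc ranked above 15.7 to 33.9% of non-control probe sets in vehicle samples and above 52.7 to 88.9% in GnRH samples. Its mean in vehicle samples, 6.43 ± 0.61 (log2, SD, n = 6), was below the filter on low values at 7.35, so Arc entered the table of tested probe sets only through its GnRH samples. Since the samples are mixtures, more Arc RNA per cell and more cells with Arc RNA cannot be told apart, and the cell type that carries it was not measured.

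Plk2 was lower with GnRH in 2 of the 3 sets. Vehicle signals were close together, at 574 and 538 in set I, 680 and 844 in set II and 517 and 574 in set III. GnRH signals were 543 and 555 in set I, inside the vehicle range, and 162 and 120 in set II and 160 and 290 in set III, below every vehicle sample. Over all 12 arrays the groups therefore overlapped through set I. GnRH minus vehicle on the log2 scale was -1.20 ± 0.41 (SE, n = 6 per group), which is 0.435-fold with a 95% interval from 0.237 to 0.796. Set I gave -0.02, set II -2.32 and set III -1.27. Pairing each GnRH with each vehicle array gave 26 of 36 pairs at least 1.5-fold lower and 0 at least 1.5-fold higher.

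The spike-in level moved with the Plk2 difference. The 4 GnRH samples with low Plk2 were all on arrays with high spike-in signal, and the 2 with signal inside the vehicle range were on arrays with low spike-in signal. Vehicle samples did not divide in this way, since vehicle 3, 4 and 6, with high spike-in signal, gave 680, 844 and 574, and vehicle 1, 2 and 5, with low signal, 574, 538 and 517. Within the 7 arrays of high spike-in level the difference was -1.93, and within the 5 of low level it was 0.02. All GnRH arrays of set I were low in spike-in signal and all those of sets II and III were high. Spike-in level and preparation therefore cannot be told apart in the Plk2 difference, and the part of either was not tested. Plk2 exceeded the background mean on all 12 arrays, by 3.71 to 38.9 times in vehicle samples and by 1.48 to 5.49 times in GnRH 3 to 6. Whether the response differed between sets was asked with limma's moderated F test of the agent-by-set terms, which for Plk2 gave an unadjusted p of 0.0555 and an adjusted p of 0.927 over all tested probe sets. Without vehicle 3 the values were 0.0428 and 0.743. Pomc, the corticotrope hormone gene, chosen here after its values were seen, differed by -0.55 in set I and by -2.35 and -2.40 in the other two. Over the 12 arrays together the other corticotrope markers on the array were higher, Tbx19 by 0.64 ± 0.51 and Avpr1b by 0.37 ± 0.61 (log2, SE). In sets I, II and III Tbx19 differed by -0.22, 0.22 and 1.91 and Avpr1b by -0.34, -0.03 and 1.49. The summed signal of the 3 corticotrope markers on the array overlapped, at 590 to 1824 in vehicle and 663 to 1577 in GnRH samples, and the part of these cells in the Plk2 difference was not tested.

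Plk3, the close relative of Plk2 and in mammals a kinase of stress and cell cycle responses, lay in overlapping ranges in both groups. Its vehicle signals were 81.6 and 212 in set I, 54.2 and 378 in set II and 204 and 622 in set III. The GnRH signals were 138 and 202, 234 and 411, and 258 and 432. The GnRH samples lay inside the wider vehicle range. On the log2 scale GnRH minus vehicle was 0.39 ± 0.53 (SE; 1.31-fold, 95% interval 0.599 to 2.87), with 0.29, 0.97 and -0.10 by set. It was 0.01 without vehicle 3, in which Plk3 was at 0.296 times the background mean. Only this array gave Plk3 below background.

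Bdnf was measured by 2 probe sets that went apart. With 1368678_at the vehicle signals were 73.7 and 86.9 in set I, 473 and 94 in set II and 125 and 270 in set III. The GnRH signals were 144 and 175, 1424 and 295, and 386 and 427. GnRH samples were higher in 29 of 36 pairs, and in sets I and III both GnRH values exceeded both vehicle values, whereas in set II vehicle 3 exceeded GnRH 4. The log2 difference was 1.16 ± 0.52 (SE; 2.23-fold, 95% interval 1.04 to 4.77), and by set 0.86, 1.53 and 1.07. It was 0.83 without GnRH 3 and 1.38 without vehicle 3. Of all tested probe sets 12.6% had a mean difference above 0 in each set. How many had both GnRH values above both vehicle values in sets I and III was not counted.

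With the other Bdnf probe set, 1368677_at, the signals were 150, 173, 1182, 35.2, 74.2 and 279 in vehicle 1 to 6 and 220, 157, 51, 56.1, 103 and 56.4 in GnRH 1 to 6. GnRH samples were higher in 12 of 36 pairs. This probe set did not pass the filter on low values, and 4 of its 12 signals lay below the background mean. Its log2 difference of -0.82 ± 0.70 (SE) became -0.12 without vehicle 3. Over the 12 arrays, centred within sets, the 2 Bdnf probe sets correlated at 0.16 (Pearson's r, as a description). Bdnf is transcribed from several starts with different first exons, and which of its transcripts each probe set detects is not given in the sources used here.

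Homer1 was covered by 5 probe sets, of which 2 passed the filter on low values and had most signals above background. With 1370454_at the vehicle signals were 286, 300, 159, 53.3, 295 and 217 and the GnRH signals 385, 368, 534, 224, 442 and 381. GnRH samples were higher in 33 of 36 pairs and in each set both GnRH values exceeded both vehicle values. How many of all tested probe sets did so was not counted. A mean difference above 0 in each set, which is a weaker condition, was found in 12.6% of them. The log2 difference of 1370454_at was 0.91 ± 0.445 (SE; 1.88-fold, 95% interval 0.978 to 3.61), with 0.35, 1.72 and 0.66 by set. In vehicle 3 and 4 the signal was 0.865 and 0.547 times the background mean, and with signals raised to background the difference was 0.76. It was 0.34 on the 5 arrays of low spike-in level and 1.38 on the 7 others.

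With 1368318_at the vehicle signals of Homer1 were 234, 235, 400, 25.3, 289 and 586 and the GnRH signals 226, 255, 445, 484, 306 and 917. The groups overlapped in sets I and III. The log2 difference of 0.75 ± 0.57 (SE; 95% interval -0.44 to 1.95) rested on vehicle 4, which was at 0.26 times background, and was 0.20 without that array. These 2 probe sets correlated at 0.70 over the 12 arrays within sets (Pearson's r, as a description).

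The other 3 Homer1 probe sets did not pass the filter on low values. 1370997_at gave 75, 47.6, 1183, 451, 39.8 and 69.4 in vehicle samples and 179, 192, 83.6, 142, 30.6 and 574 in GnRH samples. Its log2 difference was 1.40 in set I, -2.58 in set II, 1.26 in set III and 0.03 ± 0.74 (SE) over all arrays. 1368319_a_at and 1370656_a_at exceeded the background mean on 5 and 6 of the 12 arrays and never exceeded the highest control, with differences of 0.13 and -0.02. The pairwise correlations among the 5 Homer1 probe sets within sets ran from -0.59 to 0.70 over 12 arrays. The annotation does not state which Homer1 isoform a probe set detects, so none is assigned to the short or the long form.

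**Figure D2:**
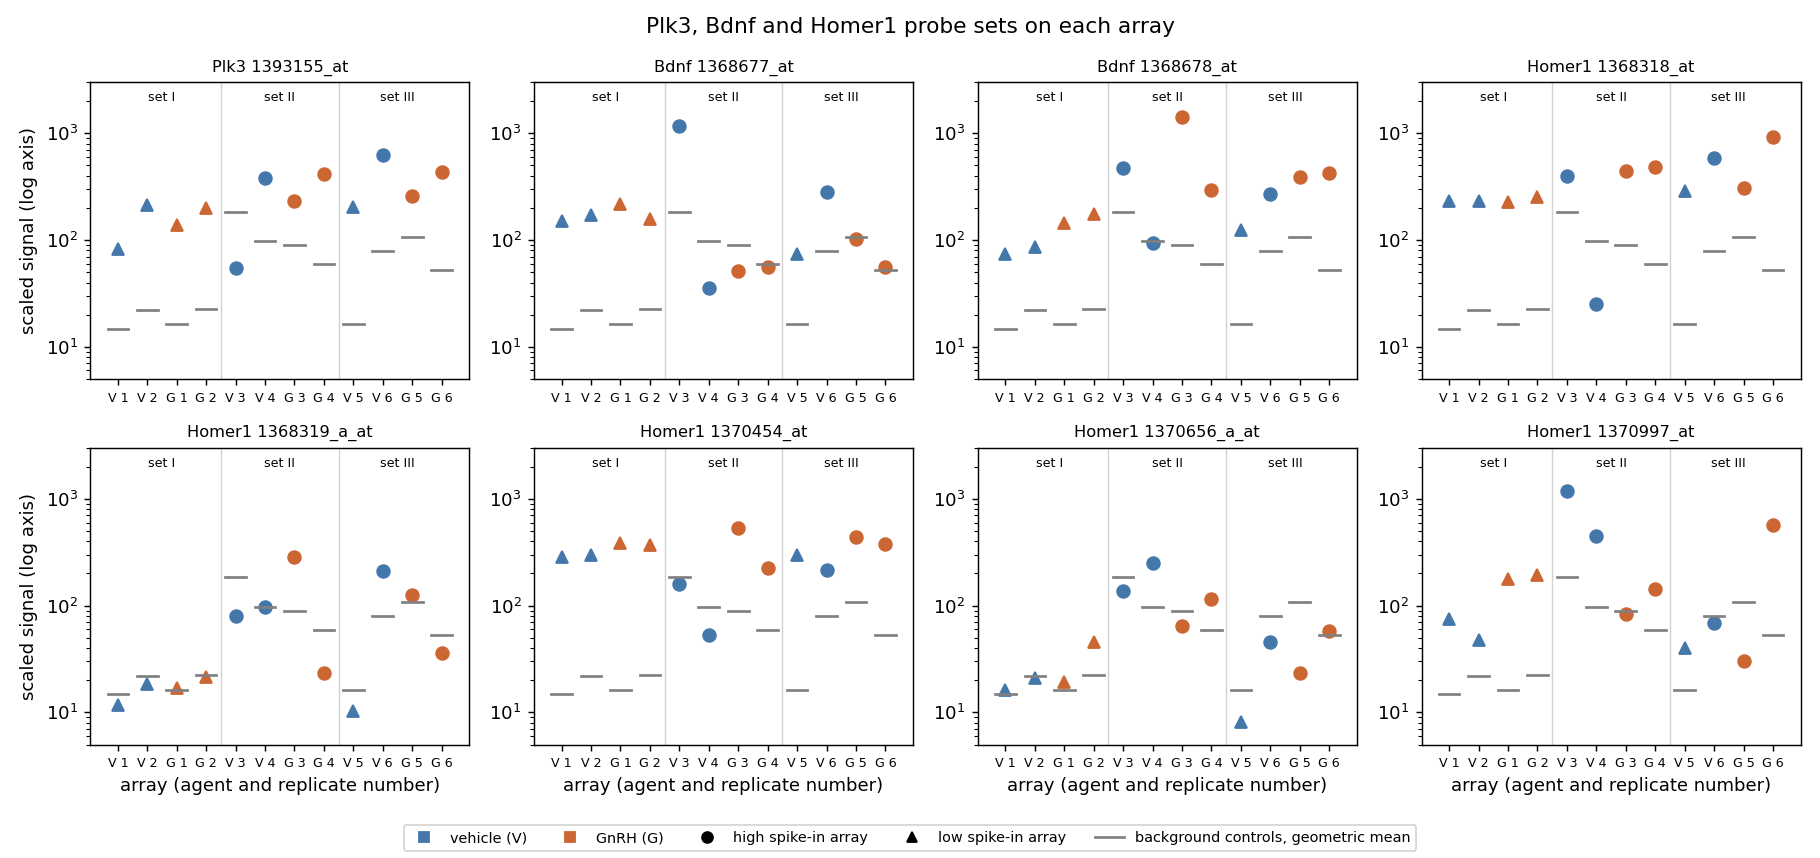
Scaled signal (log axis) of the Plk3 probe set, the 2 Bdnf and the 5 Homer1 probe sets on each of the 12 arrays by enrichment set, with vehicle (V) in blue, GnRH (G) in orange, triangles for low and circles for high spike-in signal and a grey bar for the background control mean. Bdnf 1368678_at and Homer1 1370454_at are higher with GnRH in each set on average, while the signals of Homer1 1368319_a_at and 1370656_a_at lie around the grey bars.

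**Figure D3:**
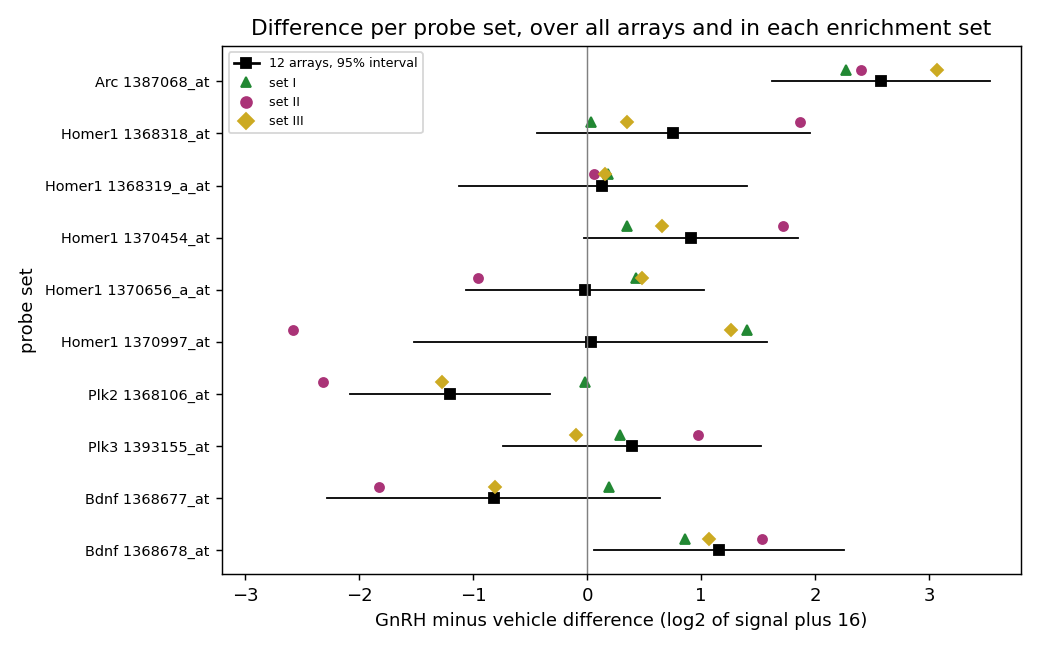
GnRH minus vehicle difference in log2 of signal plus 16 (x axis) for the 10 probe sets (y axis). Black squares and lines are the estimate over 12 arrays with its 95% interval, and coloured points above them are those of the single sets, which lie between 2.27 and 3.07 for Arc and between -2.32 and -0.02 for Plk2.

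Set against background on the same array, 92 of the 120 member signals exceeded the geometric mean of the 27 controls. Plk2 did so on 12 arrays, Plk3, Bdnf 1368678_at and Homer1 1368318_at on 11, Homer1 1370454_at on 10, and Arc and Homer1 1370997_at on 9. Against the highest of the 27 controls the count was 47 of 120, with 8 arrays for Plk2 and Homer1 1368318_at and 6 for Arc, which were 5 of its GnRH samples and vehicle 5. Low arrays gave a wider margin than high ones for the same signal, as their background was dimmer.

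**Figure D4:**
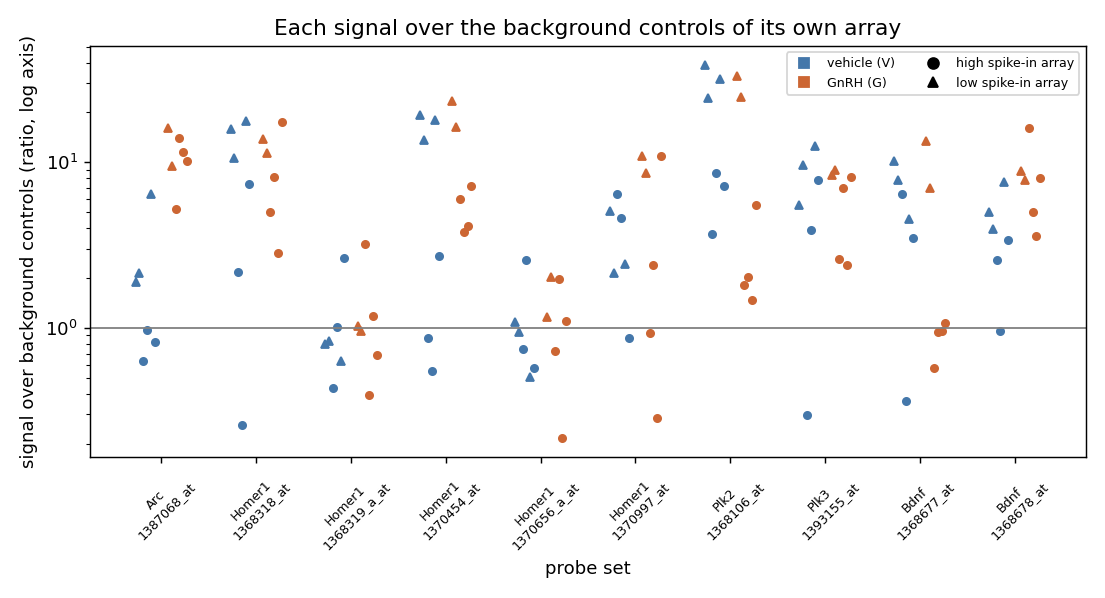
Ratio of each signal to the background control mean of its own array (y axis, log axis) for the 10 probe sets (x axis), with vehicle in blue, GnRH in orange, triangles for the 5 arrays with low spike-in signal and circles for the other 7. The line marks a ratio of 1. Arc lies on both sides of it in vehicle samples (0.63 to 6.47) and above it in all GnRH samples (5.22 to 16.2), and the ratios of the groups overlap through vehicle 5 and GnRH 3.

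The study's criterion for an up-regulated gene was a fold of 1.5 or more, with 50% or more of the array pairs concordant. Applied here to signal plus 16 and the 36 pairs, 3 of the 6 tested probe sets of these genes met it upward, Arc, Homer1 1370454_at and Bdnf 1368678_at, and 1 met its mirror image, Plk2. Of all 18625 tested probe sets 7.62% met it upward and 7.6% downward. Because the same contrast chose the genes, nothing is read from these counts. GCOS change calls were not recomputed.

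The level of the genes between preparations was not used to choose them and was tested. This was done by limma's moderated F test on the 3 sets, with the agent in the model. At an adjusted p under 0.05, 0 of the 6 tested probe sets differed, against 6.02% of all tested probe sets. Arc had mean log2 levels of 6.86, 8.12 and 8.17 in sets I, II and III (unadjusted p of 0.0508, limma adjusted p = 0.181). Because its GnRH samples alone brought Arc past the filter, it was also tested without the filter, which gave 0.0701 and a limma adjusted p = 0.214. Bdnf 1368678_at had 7.02, 8.62 and 8.18 (limma adjusted p = 0.195). Plk2 had 9.15, 8.44 and 8.49 (limma adjusted p = 0.5). For the 4 probe sets under the filter, an unfiltered fit gave limma adjusted p from 0.0986 to 0.828. All arrays of set I had low spike-in signal and dim background, whereas most arrays of sets II and III had high spike-in signal and brighter background. In these levels preparation and spike-in level therefore cannot be told apart between set I and the other sets. The part of either was not tested.

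The GnRH response was also compared between sets. By limma's moderated F test 0 of the 6 tested probe sets differed at an adjusted p under 0.05 and 0 at an unadjusted one, against 0% and 5.36% of all tested probe sets. Plk2 had the smallest p of the 6, given above. For Arc the limma adjusted p was 0.987, with a difference above 2 log2 units in each set, and for Bdnf 1368678_at it was 0.993. With 2 arrays per agent in a set, a p that misses the threshold does not show that the response was alike in the 3 preparations.

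Genes of the same pathways were counted from 5 lists with 129 genes in all. Of these, 93 were tested, 48 with a higher and 45 with a lower value in GnRH samples, and the median log2 difference was 0.04, as it was over all tested probe sets. By limma, 0 were called higher and 0 lower at an adjusted p under 0.05, against 0.00537% of all probe sets called higher and 0% lower. At an unadjusted p under 0.05, 2 were higher and 1 lower, against 1.87% and 1.58%. Without vehicle 3 there were 43 higher and 50 lower.

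Among 23 other activity-regulated effector genes, 14 were higher and 9 lower, with a median of 0.21 (0.11 without vehicle 3). Penk, which encodes the opioid precursor proenkephalin, differed by 0.83 ± 0.32 (log2, SE), with 0.59, 1.02 and 0.88 by set. Ifrd1, a transcriptional coregulator, differed by 0.78 ± 0.295 and Scg2, a granin of secretory granules, by 0.68 ± 0.33. Penk signals were 5330 to 20600 in vehicle and 12800 to 23500 in GnRH samples, so the groups overlapped.

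Of 25 postsynaptic partners of Arc and Homer1, 11 were higher and 14 lower, with a median of -0.16 (8, 17 and -0.22 without vehicle 3). Itpr3, an inositol trisphosphate receptor of the kind that Homer proteins bind, differed by -1.42 ± 0.57 (log2, SE), with -0.82, -2.74 and -0.71 by set. Its signals were 120 to 662 in vehicle and 46 to 227 in GnRH samples. Gria1, a subunit of the AMPA receptors that Arc helps to internalise, differed by -1.16 ± 0.59, and Dlg4, which encodes the scaffold PSD-95, by -0.46 ± 0.28.

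Of 16 genes of the neurotrophin system that process, bind or relay Bdnf, 9 were higher and 7 lower (8 and 8 without vehicle 3). Cpe, a peptidase and sorting receptor for prohormones, differed by 0.68 ± 0.38 (log2, SE; 0.43 without vehicle 3). Sorl1, a sorting receptor, differed by 0.55 ± 0.32, while its other tested probe sets gave -0.49 to 0.22. Kidins220, a scaffold at neurotrophin receptors, differed by 0.97 ± 0.60 and by 0.21 without vehicle 3.

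Polo-like kinase relatives and partners were higher in 4 and lower in 5 of 9 cases. Plk1, the mitotic member of the family, differed by -0.66 ± 0.44 (log2, SE). Rasgrf1, an activator of Ras and Rac and a known Plk2 target in neurons, differed by 0.44 ± 0.27, and Rapgef2, an activator of Rap, by 0.32 ± 0.32. Of 20 factors known to act on Arc or Bdnf regulatory DNA, 10 were higher and 10 lower (6 and 14 without vehicle 3). Mef2a differed by 0.58 ± 0.30 and by 0.36 without vehicle 3, and its other tested probe sets gave -0.41 to 0.60. Mrtfa, a coactivator of serum response factor, differed by 0.66 ± 0.39 (0.45 without vehicle 3) and Zeb2, a zinc-finger repressor, by 0.67 ± 0.48.

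The genes whose pattern over the arrays was most like that of Arc were found by Pearson's r over the 12 arrays, after centring within sets, among 13655 tested probe sets with 1 symbol. They were Nr4a3, an orphan nuclear receptor (r = 0.918), Narf, which binds prelamin A (0.891), Errfi1, an inhibitor of the EGF receptor (0.879), Lmna, which encodes lamin A and C (0.873), and Tnfsf4, a cytokine of the tumour necrosis factor family (0.856). All points share the agent, so a high r mostly says that a gene was higher with GnRH in each set. Nr4a3 signals were 800 to 1660 in GnRH and 376 to 777 in vehicle samples, and Lmna signals 337 to 1540 and 190 to 645. Without vehicle 3 these r lay between 0.867 and 0.975.

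Plk2 was most like Grhpr, a glyoxylate reductase (r = 0.960), Slc5a5, the sodium iodide symporter (0.956), Rtkn (0.942), Gclc, the catalytic subunit of glutathione synthesis (0.931), and Galm, a galactose mutarotase (0.926). By set Slc5a5 differed by 0.04, -3.16 and -2.31 and Galm by -0.41, -3.16 and -2.04. As for Plk2, the difference of each of these genes was largest in set II and smallest in set I, where all arrays had low spike-in signal. The genes were picked for a pattern like that of Plk2 on the same arrays, so this shared order follows from the choice. Slc5a5 signals in GnRH samples went down to 30, and those of Galm to 24, below the lowest background mean of the 7 arrays of high spike-in level. Without vehicle 3 these r lay between 0.914 and 0.953.

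**Figure D5:**
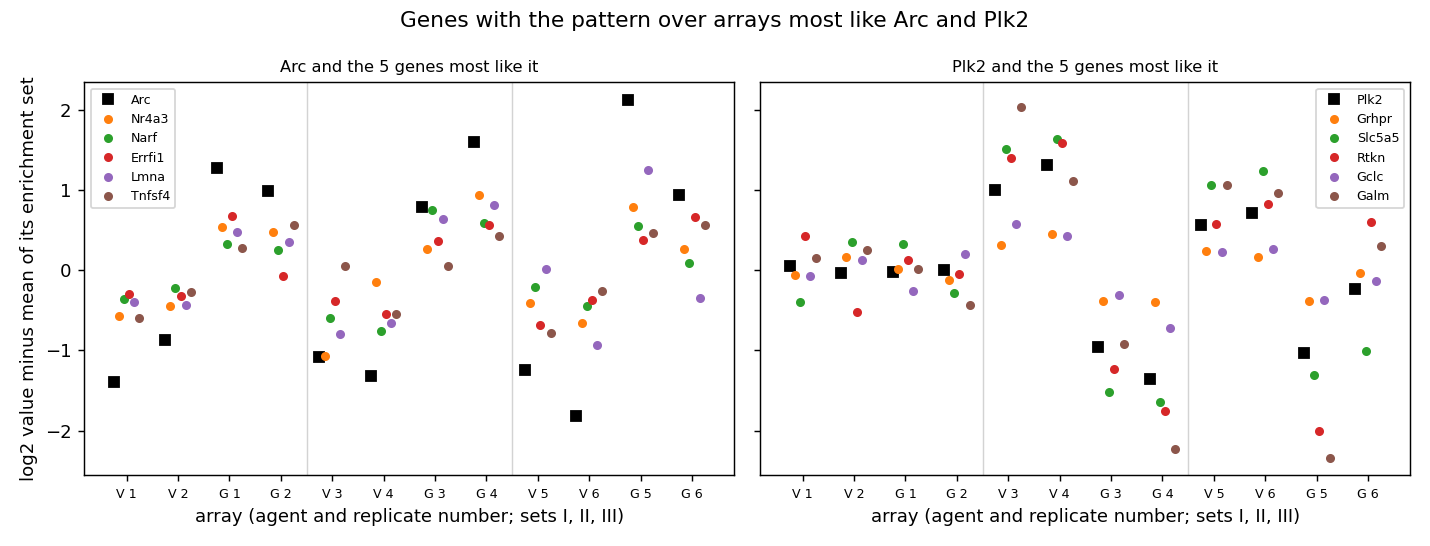
Log2 value minus the mean of its enrichment set (y axis) on each of the 12 arrays (x axis, V for vehicle and G for GnRH) for Arc and its 5 nearest genes, left, and Plk2 and its 5 nearest genes, right. In the right panel all 6 genes lie above 0 in both vehicle arrays and below 0 in both GnRH arrays of set II, whereas in set III Rtkn (0.60) and Galm (0.30) lie above 0 in GnRH 6.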

How the data were processed

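RNA from 12 samples was amplified in 2 rounds with T7 polymerase and hybridised to Affymetrix rat arrays, 1 per sample, per the labels' protocols. The deposited values are linear probe set intensities that the authors made with GCOS, per the submitters' processing notes. Its version was not given in the sources used here. Signals were rescaled to a 2% trimmed mean of 500 per array, and 16 was added before log2, so folds of dim genes are understated. Probe sets at or above the 40th percentile of mean log2 value were tested (18625). limma 3.58.1 under R 4.3.3 fitted agent and enrichment set with an intensity trend and Benjamini-Hochberg adjustment over all tested probe sets. The fits were tested on simulated data with independent noise and planted changes larger than any member difference over the 12 arrays. Smaller changes and outlying arrays were not simulated. The titles call each sample a biological replicate. Nothing else in the labels says that the wells of 1 preparation were separate cultures, so p-values measure the spread between these samples, which may be technical. The number of arrays limits the precision. 1 probe set shared by Homer1 and another gene was not used.

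The genes, the lists and the tests were chosen with earlier results of these data known. Named genes are all members, the 3 with the smallest p in each list, the 5 most like Arc and Plk2 and the gonadotrope markers. Outside this rule the neuron markers and the corticotrope markers were named, Pomc after its values were seen. Markers of other cell types were measured but are not given here. Each listed gene is represented by its brightest tested probe set. Alternatives were other pseudocounts, scalings and filters, signals raised to background, no set term, the replicate number as a block, each array left out and each set alone; the split by spike-in level was added after the data were seen.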

Additional observations from a re-analysis of the deposited data

Results flagged for a closer look

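For Homer1 1368318_at, vehicle 4 was far from the other 5 vehicle samples. Its signal of 25.3 compares with 234 to 586 in the others, and its gap was 0.672 of the range of the group on the log2 scale, above the critical value of Dixon's test for 6 samples. This was the 1 such case among 20 groups examined, and chance alone gives about 1 in 20.

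For Homer1 1370997_at the GnRH response went opposite ways in sets I and II. Both GnRH samples exceeded both vehicle samples in set I (179 and 192 against 75 and 47.6), and both were below them in set II (83.6 and 142 against 1183 and 451). How many of all probe sets did so was not counted. In set III the samples overlapped (30.6 and 574 against 39.8 and 69.4), with a log2 difference of 1.26. limma's moderated F test of this difference, in a fit without the filter on low values, gave an unadjusted p of 0.0361 and an adjusted p of 0.761, so it did not pass. This probe set was tested in 9 settings, those in which it passed the filter and the one without a filter. There the unadjusted p of the F test ran from 0.00169 (without GnRH 5) to 0.118 (without GnRH 3). The lowest adjusted p was 0.385.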

How the results depend on the processing

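The sign of the GnRH difference was the same in 24 of 24 alternatives for Arc (1.87 to 3.07), Bdnf 1368678_at (0.68 to 1.53) and Homer1 1370454_at (0.34 to 1.72). It was the same in 23 of 24 for Plk2, Plk3 and Homer1 1368318_at, and in 12 to 22 of 24 for the 4 dim probe sets. For Arc and Homer1 1370454_at both GnRH signals exceeded both vehicle signals in each set. Their sign therefore could not change with an array left out or in 1 set alone, nor that of Arc in the split by spike-in level. Arc moved by more than the spread between replicates with a pseudocount of 64 (2.06), in set III alone (3.07) and on the 5 arrays with low spike-in signal (1.87). Plk2 did so in set I alone (-0.02), in set II alone (-2.32) and on the 7 arrays of high spike-in level (-1.93), and changed sign on the 5 with low signal (0.02). In set II alone Homer1 1368318_at (1.87), 1370454_at (1.72) and 1370656_a_at (-0.96) did so and 1370997_at changed sign (-2.58); on the arrays of low spike-in level 1370997_at moved to 1.55. The cause was not tested. With each array left out Arc ran from 2.37 to 2.70, Plk2 from -1.36 to -1.01, Plk3 from 0.01 to 0.64, Bdnf 1368678_at from 0.83 to 1.39 and Homer1 1368318_at from 0.20 to 1.03. Signals above background fell from 92 to 47 of 120 with the highest control as the limit, which is stricter by construction. With Spearman's correlation 1 of the 5 genes nearest to Arc and 2 of those nearest to Plk2 were shared. The set tests called 0 members and the lists 0 genes in the alternatives run. With the replicate number as a block 0 listed genes were called. In this balanced design the differences, 2.58 for Arc and -1.20 for Plk2, cannot change with that block or without the set term. Deviations of same-numbered samples from their agent's mean correlated at -0.222 to 0.649 over probe sets, and from their agent and set means at -0.138 to -0.026, so the numbers were not taken as pairs. Signals near background limit Arc in vehicle samples, Homer1 and Bdnf 1368677_at.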

Other observations

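Between the genes, values centred within sets were compared over the 12 arrays as a description; the points share the agent and the spike-in level. Homer1 1370454_at and Bdnf 1368678_at went together (Pearson's r = 0.87). Arc correlated at 0.65 with Homer1 1370454_at, at 0.55 with Bdnf 1368678_at, at -0.81 with Plk2 and at 0.17 with Plk3. The 2 polo-like kinase genes correlated at -0.22 with each other.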
